A study of Rattus norvegicus with 15 samples.

Results

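The comparison of 100 µM zinc gluconate for 12 h with the same dose for 6 h asks which early responses of Odora cells faded, persisted or grew while the dose stayed the same. It rests on 6 of the 15 libraries of the series, 3 at each time, chosen by their labels alone, and on the 10575 genes that passed a filter on low counts out of 16832 identifiers. Between 6 h and 12 h, 103 genes changed. The largest fall was that of Hmox1, which encodes the haem-degrading enzyme haem oxygenase 1, and 27 of the 51 genes that rose belong to lists of the ATF4 response and of aminoacyl-tRNA synthetases, which had been low at 6 h. The metallothioneins Mt1 and Mt2A stayed far above control at both times.

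The study measured gene expression by RNA sequencing of total RNA in undifferentiated Odora cells, a rat cell line that the labels call olfactory neuron. Its 5 groups of 3 libraries are a control, 3 exposures to zinc gluconate at 100 µM (6 h, 12 h and 24 h) and 1 at 200 µM (6 h). The control is labelled without an exposure time, so no control is matched to 6 h or to 12 h. In the direct comparison of 12 h with 6 h, time of exposure and time in culture go together and cannot be told apart. Each ratio to control sets an exposed group against the same 3 libraries. All groups share the one cell line, and no allele, transgene or second agent is named. Nothing in the labels says that the 3 libraries of a group are separate cultures. The p-values therefore reflect how far these libraries differ, a spread that may be technical.

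Zinc entering a cell is sensed by the transcription factor MTF1, which binds metal response elements and turns on metallothioneins, small cysteine-rich proteins that bind zinc, and Slc30a1, an exporter that moves zinc out across the plasma membrane. Thiol stress frees the transcription factor NRF2 from its inhibitor KEAP1 and raises glutathione and thioredoxin enzymes through antioxidant response elements. The transcription factor ATF4 is translated when amino acids run short or the endoplasmic reticulum is stressed, and it drives amino acid synthesis, transport and tRNA charging through sites that combine C/EBP and ATF motifs.

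The labelled cell type was checked against its markers. Cnga2 and Gap43 had no count in any of the 6 libraries, and Omp, the marker of mature olfactory neurons, lay between 0.0778 and 0.451 CPM (read counts scaled to the library total). Ncam1 was at 96.0 to 105 CPM and Lhx2 at 13.4 to 14.9 CPM. The fibroblast markers were uneven. Col1a1 lay between 3973 and 4631 CPM, and Col3a1, Col1a2 and Thy1 between 656 and 2515 CPM. Pdgfra and Pdgfrb lay between 7.98 and 95.2 CPM. Lum, Dcn and Postn were only at 0.143 to 9.29 CPM, and Fap had no count. No tested member of 6 marker lists passed the test between 6 h and 12 h (10 of 21 olfactory, 2 of 8 epithelial, 3 of 9 glial, 9 of 10 fibroblast, 3 of 9 leukocyte and 10 of 12 heart markers were tested), and no red cell marker could be tested. Only 0.974% of all tested genes passed, so lists this small could lack calls whether or not the cells changed. The summed olfactory lineage markers were 169 to 183 CPM at 6 h and 174 to 181 CPM at 12 h, and the summed fibroblast markers were 7238 to 9031 CPM and 7496 to 8155 CPM. Total counts were 35.2, 10.3 and 12.2 M (mega) at 6 h, 13.1, 13.2 and 11.7 M at 12 h and 23.7 to 28.0 M in the controls. Levels below are CPM scaled by trimmed means (TMM). Replicate 1 at 6 h stood apart in depth and also held transcripts of heart muscle: 6 heart genes summed to 49.4 CPM there, to 0.208 to 0.464 CPM in the other 5 libraries of 6 h and 12 h, and to 26.7 to 107 CPM in the controls. The heart markers gave no call between 6 h and 12 h, or 1 lower call without 6 h replicate 2. Their median log2 ratio of 12 h to 6 h was nonetheless -4.80, with 9 of 10 tested lower. At 12 h against control 7 of 10 gave a lower call, where 2.97% of all tested genes did. Results are also given without 6 h replicate 1 where it decides them. The part of these transcripts in other results was not tested. In bulk RNA, fewer cells of a type and less RNA per cell cannot be told apart.

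Promoters of some of the genes that the results turn on are shown first, from RefSeq on the rat assembly GRCr8, whose coordinates they carry. The deposited counts were made on another build, and no coordinate was transferred. Each run is printed 5′ to 3′ on the gene's strand. In the first set capitals mark matches to the core of the metal response element, TGCACNC or TGCGCNC, searched on both strands in the 250 bases before the start of each gene.
Mt1 (chr19:10832978-10833197, minus strand): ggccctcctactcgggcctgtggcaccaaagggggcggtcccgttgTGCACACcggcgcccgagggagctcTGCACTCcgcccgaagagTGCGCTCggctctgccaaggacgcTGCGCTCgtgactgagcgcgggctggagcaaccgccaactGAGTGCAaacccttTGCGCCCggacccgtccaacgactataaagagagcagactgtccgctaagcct
Mt2A (chr19:10838733-10838952, minus strand): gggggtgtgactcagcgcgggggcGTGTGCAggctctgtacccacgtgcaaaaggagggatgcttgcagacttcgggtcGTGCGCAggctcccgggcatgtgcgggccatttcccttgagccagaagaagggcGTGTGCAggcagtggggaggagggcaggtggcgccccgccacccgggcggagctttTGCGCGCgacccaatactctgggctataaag
Slc30a1 (chr13:106021799-106022018, plus strand): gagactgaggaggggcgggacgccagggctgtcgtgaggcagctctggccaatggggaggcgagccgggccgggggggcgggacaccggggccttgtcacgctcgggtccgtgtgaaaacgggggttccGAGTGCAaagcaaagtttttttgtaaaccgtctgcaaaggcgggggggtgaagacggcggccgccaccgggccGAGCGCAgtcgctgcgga

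The Mt1 window holds 6 matches, the Mt2A window 4 and the Slc30a1 window 2. The motif is short and common: 31.7% of the tested genes with a promoter in the table hold it, 37.8% of those higher at 12 h than at 6 h and 35.9% of those lower. A match describes the letters and is not evidence of binding.

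In the second set capitals mark matches to TGATGNAA, the core of the element that ATF4 and C/EBP factors share, on either strand. These 10 genes were all higher at 12 h than at 6 h and are given as 60 bases around or near the match.
Trib3 (chr3:161275534-161275593, minus strand): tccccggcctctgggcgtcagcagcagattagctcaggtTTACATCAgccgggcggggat
Chac1 (chr3:126795938-126795997, plus strand): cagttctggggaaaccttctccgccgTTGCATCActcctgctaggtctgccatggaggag
Pck2 (chr15:32997603-32997662, plus strand): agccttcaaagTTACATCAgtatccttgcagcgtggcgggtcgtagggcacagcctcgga
Nupr1 (chr1:190645923-190645982, minus strand): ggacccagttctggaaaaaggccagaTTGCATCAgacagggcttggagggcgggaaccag
Jdp2 (chr6:110993531-110993590, plus strand): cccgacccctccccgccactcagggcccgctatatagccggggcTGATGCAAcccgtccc
Angptl8 (chr8:28652411-28652470, plus strand): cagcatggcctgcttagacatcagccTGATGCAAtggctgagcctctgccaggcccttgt
Aars1 (chr19:55908344-55908403, plus strand): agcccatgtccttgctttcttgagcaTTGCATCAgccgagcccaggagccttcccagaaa
Iars1 (chr17:15193653-15193712, minus strand): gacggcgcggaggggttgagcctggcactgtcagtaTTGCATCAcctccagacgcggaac
Mars1 (chr7:65023754-65023813, minus strand): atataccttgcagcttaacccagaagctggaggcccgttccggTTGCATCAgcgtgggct
Tars1 (chr2:62114803-62114862, minus strand): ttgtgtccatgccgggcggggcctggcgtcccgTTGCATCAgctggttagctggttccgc

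Of the 51 genes higher at 12 h, 45 had a promoter in the table and 11 of those, 24.4%, held this motif. Among the 52 lower genes 39 had a promoter and 0 held it, and among all tested genes 161 of 8620 did, which is 1.87%. Across all 27457 promoters of the table the share was 3.27%. In the ATF4 list 9 of 31 promoters held it, which is 29%, and in the aminoacyl-tRNA synthetase list 5 of 16, which is 31.2%. No test was made of these shares, and the genes were grouped by the results.

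In the third set capitals mark TGACNNNGC, the core of the antioxidant response element, on either strand. Gclm and Zfand2a are shown because each holds a match, and Zfand2a is not in the list of NRF2 targets. The Zfand2a match also contains TGACTCA, an AP-1 site.
Gclm (chr2:213031937-213031996, plus strand): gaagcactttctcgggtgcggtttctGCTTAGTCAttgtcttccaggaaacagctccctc
Zfand2a (chr12:20275200-20275259, plus strand): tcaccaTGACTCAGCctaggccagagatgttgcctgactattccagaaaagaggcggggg

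These letters were found in 11 of 39 promoters of genes lower at 12 h, which is 28.2%, in 17.8% of those of genes higher at 12 h and in 12.6% of those of all tested genes. In the list of NRF2 targets 4 of 21 promoters held them, which is 19%. Srxn1 and Txnrd1, which fell, had no match. No promoter of Hmox1 was available, so none is printed.

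Of the 10575 tested genes, 103 changed between 6 h and 12 h at an adjusted p under 0.05 in edgeR's quasi-likelihood test, which is 0.974% (51 higher at 12 h, 0.482%, and 52 lower, 0.492%). At 6 h against control the same test had called 1819 genes, 17.2% (962 higher, 9.10%, and 857 lower, 8.10%), and at 12 h against control it called 669, 6.33% (355 higher, 3.36%, and 314 lower, 2.97%). The changes between the times were small. Their log2 ratios ranged in size from 0.29 to 2.38 with a median of 0.52, and only Hmox1, Gpt2, Trib3, Extl1 and Angptl8 passed a size of 1. The median log2 ratio of all tested genes was 0.004 and the median standard error 0.10. At an unadjusted p under 0.05 there were 1171 genes, 523 higher and 648 lower. For 101 of the 103 genes the 3 libraries of 12 h and the 3 of 6 h did not overlap in CPM, where 19.0% of all tested genes did not; Akr1b10 and Fosl1 were the exceptions.

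Each of the 1819 genes called at 6 h was placed in a class by its later tests. A gene faded if it moved back towards control between 6 h and 12 h past the threshold, grew if it moved further away past the threshold, and persisted if it did neither but was still called at 12 h against control in the same direction. By this rule 97 faded, 508 persisted and 1 grew, while 1213 passed neither later test and stay undecided. Of the 97, 48 had been higher than control at 6 h and 49 lower, 53 no longer passed the test against control at 12 h (37 of them high at 6 h and 16 low), and 44 still did (11 and 33). None had crossed to a called difference of opposite sign. Of the 508, 399 had a 95% interval of the 12 h against 6 h ratio that lay within 0.5 of 0 on the log2 scale. Another 5 genes changed between the times without a call at 6 h. The 6 h libraries enter both the 6 h against control and the 12 h against 6 h comparison, with opposite sign. Error in the 6 h values therefore tilts the class rule towards faded and away from grew, among genes first picked by their 6 h call. All class counts here carry this tilt, whose size was not tested. The values of each comparison are given side by side, and no correlation between them is computed.

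**Figure D1:**
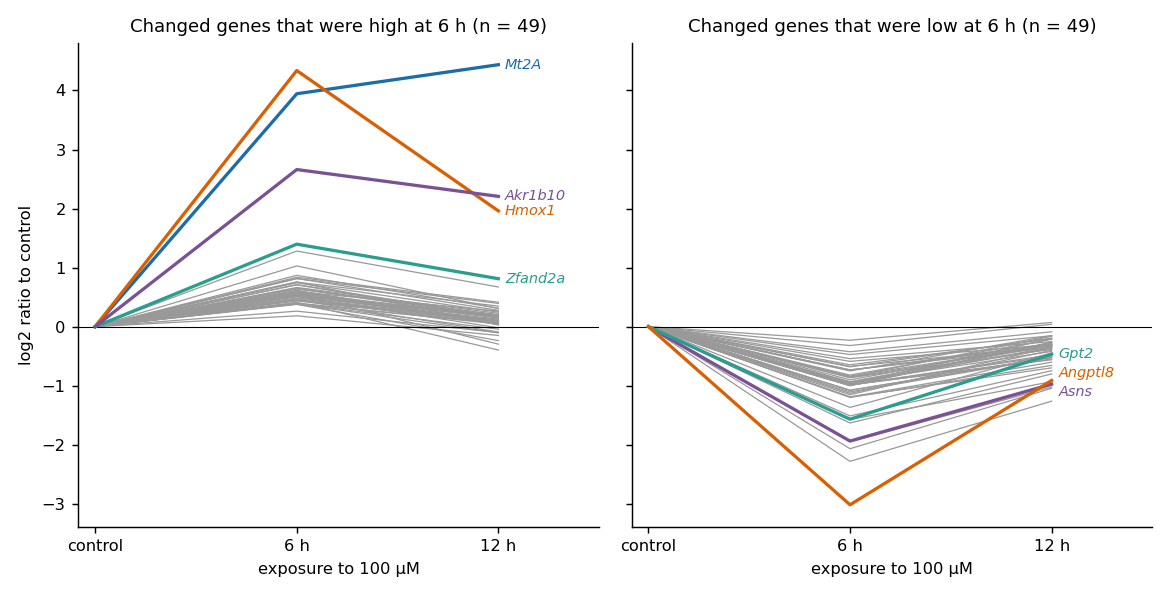
Log2 ratio to control (vertical axis) at control, 6 h and 12 h of 100 µM zinc gluconate for each changed gene that was called at 6 h; each line is 1 gene, at left the genes high at 6 h and at right those low at 6 h. Hmox1 fell from 4.34 to 1.96, Akr1b10 from 2.66 to 2.21 and Zfand2a from 1.40 to 0.81, Mt2A rose from 3.94 to 4.44, and Angptl8, Asns and Gpt2 came back part of the way.

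These counts depend on single libraries. Without 6 h replicate 1, the deepest library (35.2 M counts), which also held heart transcripts, 50 genes changed between the times. All 50 were among the 103. The parts of its depth and of its heart transcripts cannot be told apart here. Without 6 h replicate 3 the count was 68 and without 12 h replicate 2 it was 58. The count of faded genes was 49 without 6 h replicate 1 and 57 without 12 h replicate 2. The count at 6 h against control was 1026 without control replicate 1, 1204 without 6 h replicate 1 and 1210 without 6 h replicate 3, and that of persisting genes was 207 without control replicate 1, 224 without 12 h replicate 1 and 318 without 12 h replicate 3. All 103 genes kept their direction in each of 20 other fits, and 46 kept their call in all of them.

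Among zinc-handling genes, Mt2A alone changed between the times, and it rose. Of 24 listed genes 19 were tested, 1 was higher at 12 h and 0 were lower, where 0.482% and 0.492% of all tested genes were. The median log2 ratio was -0.06 against 0.004 for all tested genes. At 6 h against control 4 had risen (Mt1, Mt2A, Slc30a1 and Slc39a13, a zinc importer of internal membranes), and the same 4 were called at 12 h against control. The shares of all tested genes called higher were 9.10% and 3.36%. The zinc sensor Mtf1 was called at neither time.

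Mt1 was at 48.7, 49.2 and 36.8 CPM in the controls, at 1439, 1479 and 1340 CPM at 6 h and at 1695, 1370 and 1254 CPM at 12 h. The 12 h libraries spread around those of 6 h. The log2 ratio of 12 h to 6 h was 0.02 ± 0.14 (SE, n = 3 and 3; 95% interval -0.28 to 0.32; edgeR adjusted p = 0.976), while the ratios to control were 4.98 ± 0.17 at 6 h and 5.00 ± 0.17 at 12 h.

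Mt2A was at 88.0, 79.7 and 65.2 CPM in the controls, 1203, 1265 and 1118 CPM at 6 h and 1800, 1728 and 1517 CPM at 12 h. All 12 h libraries lay above all 6 h libraries, and the log2 ratio was 0.49 ± 0.11 (SE, n = 3 and 3; 95% interval 0.26 to 0.73; edgeR adjusted p = 0.042), a 1.41-fold rise. It was the only early gene that grew. The call is close to the threshold and was lost without control replicate 2 (0.49), 6 h replicate 1 (0.50), 6 h replicate 2 (0.53), 6 h replicate 3 (0.45), 12 h replicate 1 (0.44) or 12 h replicate 2 (0.47). Mt1 and Mt2A are close copies, and how reads matching both were counted is not given in the sources used here.

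The ratio of Mt2A to Mt1 counts, which needs no scaling between libraries, was 1.73 ± 0.0989 in the controls, 0.842 ± 0.0117 at 6 h and 1.18 ± 0.103 at 12 h (SD, n = 3 each). The groups did not overlap, and the 6 h values of 0.836, 0.855 and 0.834 lay below the 12 h values of 1.06, 1.26 and 1.21. The exact two-sided permutation p of this difference was 0.1, the smallest that 3 against 3 libraries allow over 20 relabellings. Groups without overlap always give this value, so the test adds nothing to that observation.

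**Figure D2:**
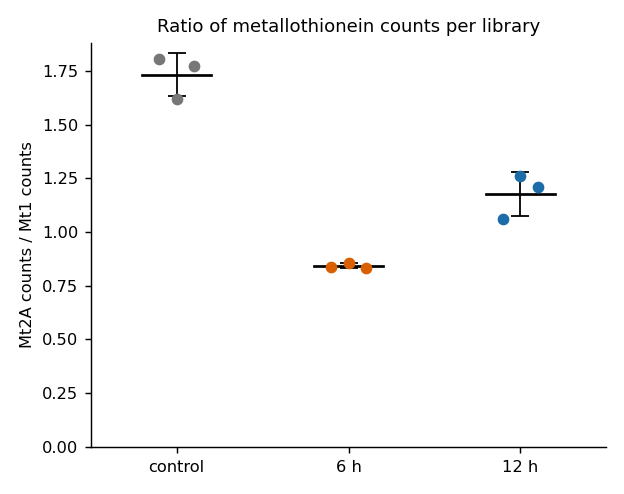
Mt2A counts divided by Mt1 counts in each control, 6 h and 12 h library (points), with the mean (bar) and SD (whisker) of 3 libraries. The ratio averaged 1.73 in the controls, 0.842 at 6 h and 1.18 at 12 h, with no overlap between the groups.

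The exporter Slc30a1 was at 22.2, 20.9 and 23.9 CPM in the controls, 98.9, 80.3 and 86.7 CPM at 6 h and 76.0, 62.7 and 72.6 CPM at 12 h. The 12 h libraries lay below those of 6 h. The log2 ratio of -0.34 ± 0.08 (SE, n = 3 and 3; 95% interval -0.51 to -0.16) did not pass the test (edgeR adjusted p = 0.0652), though it did in DESeq2 (adjusted p = 0.0198), without the filter (0.045), within the 6 libraries of 6 h and 12 h (0.0369) and without 6 h replicate 2 (0.0353). At 12 h the log2 ratio to control was still 1.66 ± 0.09.

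Several NRF2 targets came down between the times. Of 26 listed genes 24 were tested. Between 6 h and 12 h 5 fell (Hmox1, Gclm, Srxn1, Txnrd1 and Gsr), where 0.492% of all tested genes did. The median log2 ratio was -0.10, and 0 rose. At 6 h against control 17 of the 24 had been higher and 1 lower, where 9.10% and 8.10% of all tested genes were, with a median of 0.36. At 12 h against control 12 were higher and 3 lower, where 3.36% and 2.97% of all tested genes were, with a median of 0.29. By class 5 faded, 9 persisted and 4 stayed undecided, and whether members differ from each other was not tested. DESeq2 called 7 falls, and the edgeR count was 4 without 6 h replicate 1, 12 h replicate 2 or 12 h replicate 3.

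Hmox1 was at 42.4, 48.3 and 39.1 CPM in the controls, at 1021, 816 and 789 CPM at 6 h and at 150, 179 and 176 CPM at 12 h. The 3 groups did not overlap. Its level at 6 h was 5.20 times that at 12 h, a log2 ratio of -2.38 ± 0.11 (SE, n = 3 and 3; 95% interval -2.61 to -2.15; edgeR adjusted p = 2.6e-10). The log2 ratio to control was 4.34 ± 0.12 at 6 h and 1.96 ± 0.11 at 12 h, so the gene faded in part.

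Gclm, the modifier subunit of the enzyme that starts glutathione synthesis, was at 27.3, 31.2 and 35.9 CPM in the controls, 69.8, 57.3 and 64.7 CPM at 6 h and 39.1, 39.3 and 38.5 CPM at 12 h. Every 12 h library lay below every 6 h library, with a log2 ratio of -0.72 ± 0.09 (edgeR adjusted p = 0.000132). The catalytic subunit Gclc, by contrast, had a 12 h against 6 h log2 ratio of -0.13 ± 0.06 that did not pass the test. Whether the ratios of the 2 subunits differ from each other was not tested.

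In the thioredoxin system Srxn1, sulfiredoxin, which repairs oxidised peroxiredoxins, was at 173, 134 and 157 CPM at 6 h and 107, 106 and 103 CPM at 12 h (log2 ratio -0.56 ± 0.07, edgeR adjusted p = 0.000237). Txnrd1, thioredoxin reductase, was at 629, 509 and 568 CPM at 6 h and 436, 383 and 389 CPM at 12 h (log2 ratio -0.50 ± 0.07, edgeR adjusted p = 0.000706). Both sets of 12 h libraries lay below those of 6 h. Txnrd1 no longer passed the test against control at 12 h (log2 ratio 0.15 ± 0.07), whereas Srxn1 did (0.31 ± 0.07). Thioredoxin itself, Txn1, and the peroxiredoxin Prdx1 had 12 h against 6 h log2 ratios of 0.07 ± 0.07 and 0.08 ± 0.09. Gsr, glutathione reductase, had a log2 ratio of -0.42 ± 0.09 (edgeR adjusted p = 0.0229), a call lost without 6 h replicate 1 (-0.33), 12 h replicate 2 (-0.46) or 12 h replicate 3 (-0.35).

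Nqo1, a quinone reductase and a standard NRF2 target, did not come down. It was at 2676, 3016 and 2770 CPM in the controls, 5461, 5776 and 4997 CPM at 6 h and 5452, 5601 and 5071 CPM at 12 h. The groups of 6 h and 12 h overlapped, with a log2 ratio of -0.01 ± 0.07 (95% interval -0.16 to 0.14; edgeR adjusted p = 0.979). The NADPH-supplying enzymes Tkt and Me1 had log2 ratios between the times of -0.07 ± 0.07 and -0.20 ± 0.07, neither past the test, and both persisted. Nfe2l2, which encodes NRF2, was lower than control at both times and had a log2 ratio of 0.19 ± 0.07 between them (edgeR adjusted p = 0.33).

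Among iron genes 11 were tested and 1 fell between the times, Hmox1 itself, where 0.492% of all tested genes fell. The median was -0.07, and 0 rose. At 6 h against control 7 had been higher and at 12 h 3 were, where 9.10% and 3.36% of all tested genes were. By class 1 faded, 2 persisted and 4 stayed undecided. The ferritin chains Fth1 and Ftl1, which store iron, persisted. Fth1 was at 2602, 2729 and 2427 CPM at 6 h and 2617, 2911 and 2465 CPM at 12 h (log2 ratio 0.04 ± 0.10), against 1645, 1842 and 1667 CPM in the controls. The iron exporter Slc40a1 had a log2 ratio of -0.86 ± 0.24 that did not pass the test (edgeR adjusted p = 0.11). Bach1, a haem-sensing repressor of Hmox1 named here after its values were seen, was at 132, 117 and 118 CPM at 6 h and 81.6, 83.9 and 92.6 CPM at 12 h (log2 ratio -0.51 ± 0.10, edgeR adjusted p = 0.0177). Its 12 h values overlapped those of the controls, 74.1, 87.7 and 83.0 CPM, and the call was lost without 6 h replicate 1 (-0.45), 12 h replicate 1 (-0.48) or 12 h replicate 2 (-0.49).

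Of 11 aldo-keto and carbonyl reductases, which reduce aldehydes and ketones, 1 fell and 0 rose between the times, with a median of -0.02. For comparison, 0.492% of all tested genes fell. The count of falls was 4 with DESeq2 and 3 without 12 h replicate 1. Akr1b10 was at 51.1, 51.2 and 49.9 CPM in the controls, 343, 289 and 329 CPM at 6 h and 290, 208 and 204 CPM at 12 h. The highest 12 h library lay above the lowest 6 h library, and the log2 ratio of -0.45 ± 0.11 passed narrowly (edgeR adjusted p = 0.0494). The call was lost without control replicate 1, 2 or 3 (-0.45 each), 6 h replicate 1 (-0.40), 6 h replicate 3 (-0.44), 12 h replicate 2 (-0.37) or 12 h replicate 3 (-0.37). Its close relatives Akr1b8 and Akr1b7, between which reads may be shared, had log2 ratios of -0.39 ± 0.11 and -0.43 ± 0.11, short of the test. Both passed with DESeq2 (adjusted p = 0.027 and 0.0159) and in edgeR without 12 h replicate 1 (adjusted p = 0.002 and 0.00076). They stood at 2.11 ± 0.11 and 2.16 ± 0.12 over control at 12 h.

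**Figure D3:**
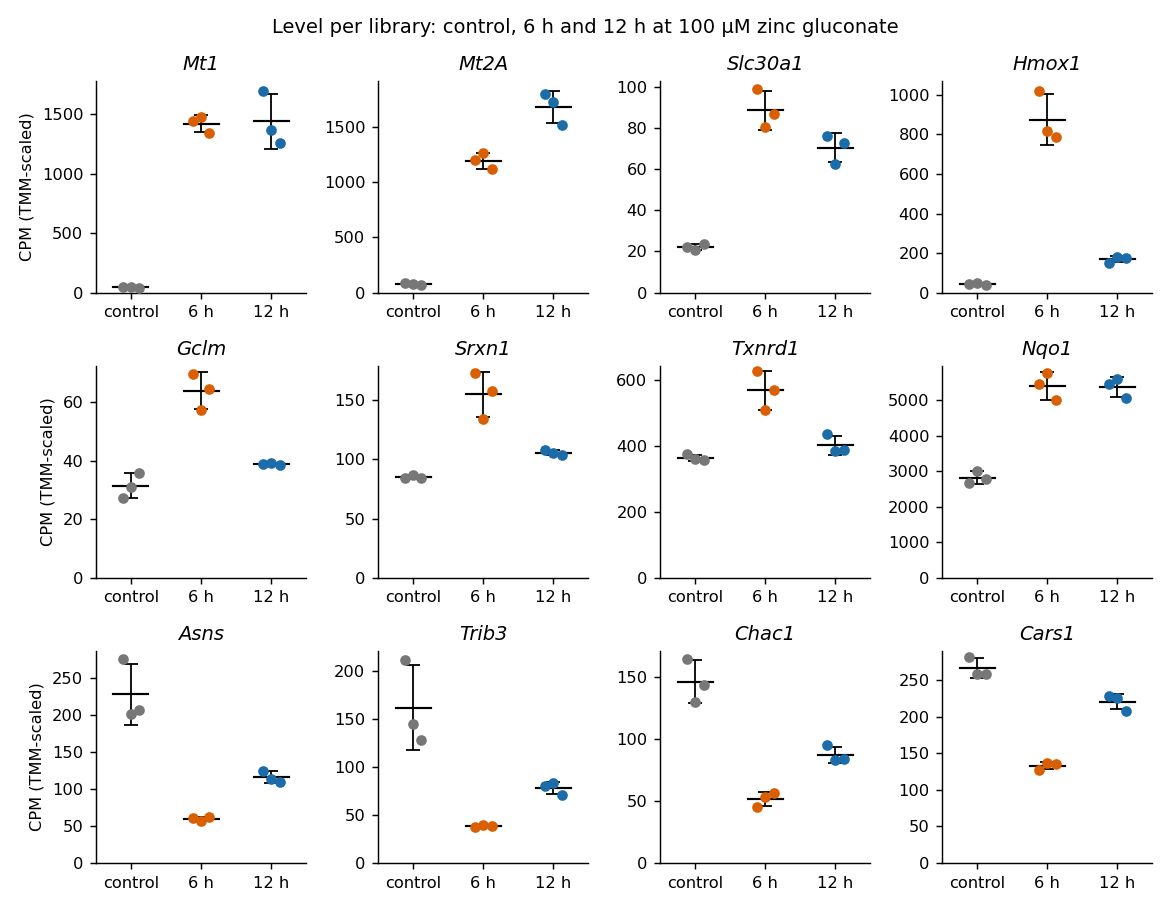
CPM (TMM-scaled, linear axes from 0) of 12 genes in each control, 6 h and 12 h library (points), with the mean (bar) and SD (whisker) of 3 libraries per group. Hmox1, Gclm, Srxn1 and Txnrd1 were lower at 12 h than at 6 h, Mt1 and Nqo1 overlapped between the times, and Asns, Trib3, Chac1 and Cars1 lay between their 6 h and control levels at 12 h.

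The ATF4 response moved the other way. Of 37 listed genes 35 were tested; 16 rose between 6 h and 12 h, where 0.482% of all tested genes did, 0 fell, and the median log2 ratio was 0.42. At 6 h against control 30 of the 35 had been lower, where 8.10% of all tested genes were, and 0 higher (median -0.91). At 12 h against control 26 were lower, where 2.97% of all tested genes were, and 0 higher (median -0.52). All 16 that rose had log2 ratios to control under 0 at 12 h. The count was 14 to 16 when a library of 6 h or 12 h was left out, and 14 without 6 h replicate 1. The control libraries themselves were uneven here: Asns, asparagine synthetase, was at 276 CPM in control replicate 1 and at 202 and 207 CPM in the others, a spread that enters the shared error estimate but not the ratio of 12 h to 6 h.

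Amino acid synthesis gave the most calls, 7 of 9 tested. Asns was at 60.3, 56.3 and 61.9 CPM at 6 h and 125, 114 and 110 CPM at 12 h, a log2 ratio of 0.96 ± 0.10 (SE, n = 3 and 3; edgeR adjusted p = 1.87e-05). Its level thus rose 1.95-fold with no overlap between the times, and its log2 ratio to control went from -1.94 ± 0.10 to -0.97 ± 0.10. Aldh18a1, which starts proline synthesis, was at 100, 107 and 109 CPM at 6 h and 178, 177 and 167 CPM at 12 h (log2 ratio 0.73 ± 0.06, edgeR adjusted p = 3.2e-06).

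Psat1, in the serine pathway, was at 184, 182 and 200 CPM at 6 h and 322, 297 and 292 CPM at 12 h (log2 ratio 0.69 ± 0.07, edgeR adjusted p = 9.48e-06). At 12 h it no longer passed the test against control, where the log2 ratio was -0.16 ± 0.07. The serine and one-carbon enzymes Psph, Shmt2 and Mthfd2 also rose, by log2 ratios of 0.56 ± 0.08, 0.48 ± 0.08 and 0.73 ± 0.08. Phgdh, the first enzyme of the serine pathway, rose by 0.42 ± 0.10 (edgeR adjusted p = 0.043), a call lost without 6 h replicate 1 (0.38), 2 (0.41) or 3 (0.48) or without 12 h replicate 1 or 2 (0.39 each). Pycr1, in proline synthesis, had 0.42 ± 0.12 and Cth, in cysteine synthesis, 0.76 ± 0.27, neither past the test. Cth did pass in edgeR within the 6 libraries of 6 h and 12 h (adjusted p = 0.0229) and without control replicate 1 (0.0197). It was still at -1.78 ± 0.22 against control at 12 h.

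Among the transcription factors and regulators 3 of 8 rose. Trib3, a pseudokinase that restrains ATF4, was at 212, 145 and 129 CPM in the controls, 37.7, 40.1 and 38.4 CPM at 6 h and 80.8, 83.4 and 71.1 CPM at 12 h. It rose 2.03-fold with no overlap (log2 ratio 1.02 ± 0.15, edgeR adjusted p = 0.00159). Atf4 mRNA was at 514, 511 and 535 CPM at 6 h and 748, 718 and 663 CPM at 12 h (log2 ratio 0.45 ± 0.08, edgeR adjusted p = 0.00327). Nupr1, a stress-response chromatin protein, rose by 0.59 ± 0.11 (edgeR adjusted p = 0.015), lost without 6 h replicate 1 (0.53), 6 h replicate 3 (0.56) or 12 h replicate 2 (0.49). Ddit3, which encodes the stress factor CHOP, was at 66.8, 76.2 and 60.7 CPM at 6 h and 76.0, 84.4 and 72.8 CPM at 12 h, overlapping, with a log2 ratio of 0.20 ± 0.13 (edgeR adjusted p = 0.654). Atf3, Atf5, Cebpg and Cebpb did not pass the test.

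Of 7 amino acid transporters 2 rose, Slc7a5 (log2 ratio 0.58 ± 0.08), which carries large neutral amino acids, and Slc1a5 (0.42 ± 0.07), which carries glutamine. Slc7a11, the cystine importer that both ATF4 and NRF2 can drive, had -0.51 ± 0.21 (edgeR adjusted p = 0.38). Among 11 effectors 4 rose. Chac1, which breaks down glutathione, was at 45.3, 53 and 56.4 CPM at 6 h and 94.6, 83.0 and 83.4 CPM at 12 h (log2 ratio 0.77 ± 0.09, edgeR adjusted p = 0.000149). Vldlr, a lipoprotein receptor, Eif4ebp1, a brake on cap-dependent translation, and Sesn2, an inhibitor of mTORC1, rose by 0.64 ± 0.09, 0.63 ± 0.11 and 0.56 ± 0.08. Ppp1r15a, Ddit4 and the secreted factor Fgf21 were near 0 between the times, at -0.003 ± 0.11, 0.03 ± 0.09 and 0.004 ± 0.31. Inhbe, with 11, 4 and 2 counts at 6 h and 16, 14 and 18 counts at 12 h, had a large but uncertain log2 ratio of 2.09 ± 0.54 (edgeR adjusted p = 0.0859).

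The cytosolic aminoacyl-tRNA synthetases, which load amino acids onto their tRNAs, were the list with the highest share of calls. Of 20 listed 19 were tested, and 11 rose between 6 h and 12 h, where 0.482% of all tested genes did. The median log2 ratio was 0.49, 0 fell, and 19 of 19 ratios were above 0. At 6 h against control 14 had been lower, where 8.10% of all tested genes were, and 0 higher (median -0.82). At 12 h 9 were lower, where 2.97% of all tested genes were, and 0 higher (median -0.25). Without any single library of 6 h or 12 h, 10 rose.

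Cars1, for cysteine, was at 282, 259 and 258 CPM in the controls, 128, 137 and 135 CPM at 6 h and 228, 226 and 208 CPM at 12 h. The 3 groups did not overlap. The log2 ratio of 12 h to 6 h was 0.73 ± 0.06 (SE, n = 3 and 3; edgeR adjusted p = 7.04e-07), a 1.66-fold rise, and that of 12 h to control was -0.27 ± 0.06.

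Mars1, for methionine, was at 289, 295 and 322 CPM at 6 h and 489, 470 and 443 CPM at 12 h (log2 ratio 0.63 ± 0.08, edgeR adjusted p = 0.000132). Aars1, for alanine, was at 241, 263 and 267 CPM at 6 h and 364, 363 and 354 CPM at 12 h (log2 ratio 0.49 ± 0.06, edgeR adjusted p = 0.000149). In both, every 12 h library lay above every 6 h library. Tars1, Iars1, Sars1, Nars1, Yars1, Gars1 and Lars1 rose by 0.52 to 0.62. Eprs1, which charges glutamate and proline, rose by 0.49 ± 0.11 (edgeR adjusted p = 0.0401), but the call was lost without any 1 of the 6 libraries, at 0.47 to 0.50. Among the synthetases that did not pass, Wars1, Farsb, Rars1, Vars1, Hars1, Farsa and Kars1 had ratios between 0.03 and 0.36. For Rars1, Hars1, Farsa and Kars1 the log2 ratio of 6 h to control was only -0.17 to 0.04.

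**Figure D4:**
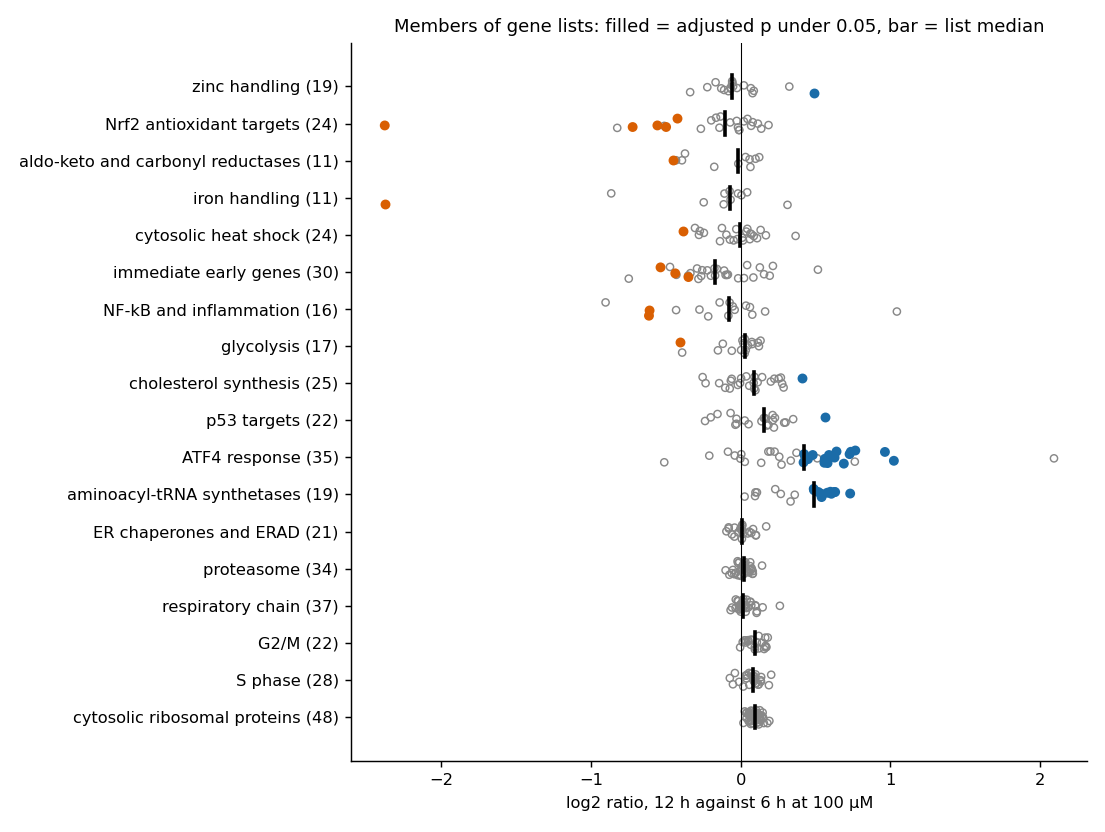
Log2 ratio of 12 h to 6 h (horizontal axis) for each tested member of 18 gene lists, with the number of tested members in brackets; filled points passed an adjusted p under 0.05 (blue higher at 12 h, orange lower), open points did not, and the bar is the list median. The ATF4 response and aminoacyl-tRNA synthetases have medians of 0.42 and 0.49, and the other lists lie between -0.17 and 0.16.

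Other genes of amino acid and one-carbon metabolism lie outside these lists and, apart from Gpt2 and Pck2, were chosen after their values were seen. Gpt2, the mitochondrial alanine aminotransferase, was at 44.6, 45.3 and 43.1 CPM in the controls, 14.3, 14.8 and 15.9 CPM at 6 h and 32.3, 35.4 and 28.3 CPM at 12 h. It rose 2.14-fold with no overlap (log2 ratio 1.10 ± 0.09, edgeR adjusted p = 6.76e-07). Pck2, the mitochondrial phosphoenolpyruvate carboxykinase, was at 100, 123 and 124 CPM at 6 h and 209, 210 and 195 CPM at 12 h (log2 ratio 0.83 ± 0.09, edgeR adjusted p = 6.75e-05). The mitochondrial folate enzyme Aldh1l2 rose by 0.49 ± 0.07, and its call held in all 20 other fits.

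The remaining genes with the highest ratios include less secure calls. Angptl8, a secreted inhibitor of lipoprotein lipase activity in rodents, had 10, 3 and 1 counts at 6 h and 18, 16 and 6 counts at 12 h, a log2 ratio of 2.11 ± 0.49 (edgeR adjusted p = 0.0458). At so few counts the fitted ratio is imprecise, with a 95% interval of 1.08 to 3.14, and the call was lost without control replicate 3 (2.11), without 6 h replicate 1 (2.52), 2 (2.17) or 3 (1.86) and without 12 h replicate 1 (1.84) or 2 (1.99). Extl1, a heparan sulphate glycosyltransferase, was at 4.88, 6.27 and 4.28 CPM at 6 h and 8.27, 11.9 and 10.7 CPM at 12 h (log2 ratio 1.02 ± 0.19), lost without 6 h replicate 1 (0.97) or 3 (0.93) or 12 h replicate 2 (0.90) or 3 (0.99). Otub2, a deubiquitinase, rose by 0.93 ± 0.19, lost without 6 h replicate 1 (0.90), 2 (0.94) or 3 (0.95) or 12 h replicate 1 (0.94) or 2 (0.77). Cabp1, a calcium-binding protein, rose by 0.92 ± 0.20, lost without 6 h replicate 1 (0.88) or 3 (0.86) or 12 h replicate 2 (0.83) or 3 (0.90). Atp2a3, a calcium pump of the endoplasmic reticulum, rose by 0.81 ± 0.18, lost without 6 h replicate 1 (0.81) or 2 (0.73) or 12 h replicate 1 (0.76) or 2 (0.75).

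H1f0, a linker histone, was firmer: it was at 41.7, 52.7 and 39.1 CPM at 6 h and 68.0, 87.3 and 69.7 CPM at 12 h (log2 ratio 0.76 ± 0.10, edgeR adjusted p = 0.000271). Of the 12 h values only that of replicate 2 reached those of the controls, 85.4, 89.0 and 84.7 CPM. Jdp2, an AP-1 family repressor, was at 29.5, 30.8 and 32.4 CPM at 6 h and 48.1, 47.0 and 47.1 CPM at 12 h (log2 ratio 0.62 ± 0.10, edgeR adjusted p = 0.00183). Phf10, a subunit of a chromatin remodelling complex, and Arhgef2, a microtubule-bound exchange factor for RhoA, rose by 0.44 ± 0.07 each. The calls of these 4 genes, of which all but H1f0 were named after their values were seen, held in all 20 other fits.

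Among immediate early genes, which respond to growth factors and stress without new protein synthesis, 30 were tested, 3 fell between the times, 0 rose and the median was -0.17. The share that fell among all tested genes was 0.492%. Ier3, an inhibitor of cell death, was at 59.4, 58.5 and 55.9 CPM in the controls, 104, 86.7 and 92.6 CPM at 6 h and 70.8, 64.8 and 60.6 CPM at 12 h. The 12 h libraries lay just above the controls and below 6 h (log2 ratio -0.54 ± 0.08, edgeR adjusted p = 0.000706). Fosl1 and Maff, both basic leucine zipper factors, fell by 0.44 ± 0.10 and 0.35 ± 0.07 on the log2 scale. The call of Fosl1 was lost without control replicate 3 (-0.44), 6 h replicate 1 (-0.36) or 3 (-0.38) or 12 h replicate 2 (-0.36) or 3 (-0.43), and that of Maff without 6 h replicate 1 (-0.32) or 3 (-0.31) or 12 h replicate 2 (-0.31) or 3 (-0.34). The list had 1 fall without each of the 6 h and 12 h libraries just named, and 5 without 6 h replicate 2 and with DESeq2. Fos was at 8.79 to 9.73 CPM at 6 h and 7.77 to 9.98 CPM at 12 h, overlapping the controls. The phosphatase gene Dusp5 persisted, with a log2 ratio of -0.28 ± 0.08 between the times.

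Of 16 inflammation genes tested 2 fell, where 0.492% of all tested genes did, and 0 rose, with a median of -0.08. Ptgs2, the inducible cyclooxygenase, was at 44.4, 41.8 and 41.2 CPM in the controls, 58.9, 54.2 and 51.6 CPM at 6 h and 31.4, 35 and 41.8 CPM at 12 h. At 12 h replicate 3 lay within the range of the controls and the other libraries lay below it. The log2 ratio to 6 h was -0.61 ± 0.09 (edgeR adjusted p = 0.000875). Ptgs2 was not called at 12 h against control (edgeR adjusted p = 0.132). The chemokine gene Cxcl1 was at 36.3, 26.6 and 33.5 CPM at 6 h and 23.3, 18.7 and 22 CPM at 12 h (log2 ratio -0.61 ± 0.12, edgeR adjusted p = 0.0176), a call lost without 6 h replicate 1 (-0.50) or 3 (-0.59) or 12 h replicate 2 (-0.52) or 3 (-0.63). The list had 1 fall without each of those 4. Casp4, an inflammatory caspase, was at 29.4, 16.8 and 17.3 CPM in the controls, 3.24, 3.40 and 2.78 CPM at 6 h and 5.27, 8.32 and 5.88 CPM at 12 h. Its 12 h against 6 h log2 ratio of 1.04 ± 0.25 did not pass (edgeR adjusted p = 0.0542), though it did with DESeq2 (adjusted p = 0.000912), within the 6 libraries of 6 h and 12 h (0.00475) and without control replicate 1 (0.00149), 2 (0.0311) or 3 (0.0383). Its 12 h libraries all lay under the controls. Casp12, a related caspase, had 0.71 ± 0.22 and the interferon-inducible Ifi27l2b 0.48 ± 0.14, neither past the test, and both were classed as persisting below control. Both passed with DESeq2 (adjusted p = 0.0225 and 0.0321). In edgeR they passed within the 6 libraries of 6 h and 12 h (adjusted p = 0.0158 and 0.00534) and without control replicate 1 (0.0329 and 0.0199).

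Several secreted and signalling genes that had risen at 6 h no longer passed the test against control at 12 h. Bmp2, a growth factor of the TGF-beta family, was at 5.78, 5.75 and 5.71 CPM at 6 h and 2.57, 3.88 and 3.41 CPM at 12 h (log2 ratio -0.81 ± 0.15, edgeR adjusted p = 0.00604), a call lost without 6 h replicate 1 (-0.80). Has2, a hyaluronan synthase, was at 47.0, 39.7 and 44.3 CPM at 6 h and 26.6, 23.9 and 29.0 CPM at 12 h (log2 ratio -0.73 ± 0.14, edgeR adjusted p = 0.00986), lost without 6 h replicate 1 (-0.67) or 12 h replicate 2 (-0.66). Muc1, a membrane mucin, had a log2 ratio of -0.85 ± 0.18, lost without 6 h replicate 2 (-0.68) or 3 (-0.83) or 12 h replicate 1 (-0.76) or 3 (-0.84). Zfand2a, a stress-induced zinc finger protein tied to the proteasome, was at 79.9, 83.2 and 82.7 CPM in the controls, 243, 199 and 204 CPM at 6 h and 115, 154 and 163 CPM at 12 h (log2 ratio -0.58 ± 0.10, edgeR adjusted p = 0.00496), lost without 6 h replicate 1 (-0.48) and within the 6 libraries of 6 h and 12 h (-0.59). Zfand2a stayed above control at 12 h, unlike the other 3.

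A further set, named after the values were seen, kept its calls when any 1 library was left out. Psmd5, an assembly chaperone of the proteasome, was at 136, 126 and 143 CPM at 6 h and 103, 96.3 and 101 CPM at 12 h (log2 ratio -0.43 ± 0.07, edgeR adjusted p = 0.00213). Slc23a2, a vitamin C transporter, was at 128, 103 and 100 CPM at 6 h and 74.0, 72.1 and 83.1 CPM at 12 h (log2 ratio -0.54 ± 0.09, edgeR adjusted p = 0.003). Klf5, a zinc finger transcription factor, was at 122, 111 and 114 CPM at 6 h and 91.5, 92.0 and 92.8 CPM at 12 h (log2 ratio -0.33 ± 0.05, edgeR adjusted p = 0.00238). In these 3 genes every 12 h library lay below every 6 h library. Klhl21, a ubiquitin ligase adaptor, Pip4p2, a lipid phosphatase, and Clcf1, a cytokine, fell by 0.54 ± 0.08, 0.55 ± 0.07 and 0.42 ± 0.07 on the log2 scale.

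Heat shock proteins mostly held. Of 24 tested 1 fell, where 0.492% of all tested genes did, and 0 rose, with a median of -0.01. At 6 h 8 had been higher than control and 1 lower, where 9.10% and 8.10% of all tested genes were. Hspa8, the constitutive Hsp70, was at 3633, 3886 and 3780 CPM in the controls, 5716, 5088 and 5591 CPM at 6 h and 4263, 4200 and 4071 CPM at 12 h (log2 ratio -0.39 ± 0.06, edgeR adjusted p = 0.0022). The 12 h libraries lay between the other groups without overlap. The inducible Hspa1a, a near-identical copy of which exists, was at 14.9, 14.8 and 12.3 CPM at 6 h and 9.12, 11.1 and 14.1 CPM at 12 h, overlapping, with a log2 ratio of -0.31 ± 0.16 (edgeR adjusted p = 0.513). Hsph1, an Hsp110 chaperone, persisted with a ratio of -0.07 ± 0.10.

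Most glycolysis genes persisted. Of 17 tested genes 14 had been higher than control at 6 h and 0 lower, 13 were higher at 12 h and 12 persisted. The shares of all tested genes called higher at 6 h and 12 h were 9.10% and 3.36%. Between the times 1 fell, where 0.492% of all tested genes did, and 0 rose, with a median of 0.03. Ldha, lactate dehydrogenase A, was at 1106, 1140 and 1346 CPM in the controls, 1945, 1702 and 1978 CPM at 6 h and 2152, 1802 and 1739 CPM at 12 h, overlapping between the times (log2 ratio 0.02 ± 0.09; 95% interval -0.17 to 0.20). Gpi, Pfkl and Eno1 had ratios of 0.03 ± 0.09, 0.03 ± 0.08 and 0.01 ± 0.08. The exception was the glucose transporter Slc2a1, which fell by 0.41 ± 0.08 on the log2 scale (edgeR adjusted p = 0.02) and lost the call without 6 h replicate 1 (-0.35) or 3 (-0.39) or 12 h replicate 2 (-0.34) or 3 (-0.36).

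Of 25 cholesterol synthesis genes tested 9 had been higher than control at 6 h, where 9.10% of all tested genes were. Of these 8 persisted and 1 stayed undecided. At 12 h 13 were higher, where 3.36% of all tested genes were, with 0 lower at either time. Between the times 1 rose, where 0.482% of all tested genes did, 0 fell, and the median was 0.09. Hsd17b7, an enzyme of the later steps, had a ratio of -0.25 ± 0.13, which did not pass the test.

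Only 5 genes changed between the times without a call at 6 h. Pmvk, phosphomevalonate kinase of the same pathway, was at 28.6, 32.1 and 33.1 CPM in the controls, 27.9, 29.7 and 33.9 CPM at 6 h and 39.5, 40.7 and 40.3 CPM at 12 h. All 12 h libraries lay above the rest (log2 ratio 0.41 ± 0.09 to 6 h, edgeR adjusted p = 0.0415), a call lost without 6 h replicate 1 (0.34) or 2 (0.39), 12 h replicate 1 (0.41) or 12 h replicate 2 or 3 (0.40 each). Lpar1, a lysophosphatidic acid receptor, fell, from 182, 170 and 172 CPM at 6 h to 138, 140 and 146 CPM at 12 h (log2 ratio -0.30 ± 0.06, edgeR adjusted p = 0.0102), lost without 6 h replicate 1 (-0.27) or 12 h replicate 1 (-0.29) or 2 (-0.30). The other falls were Acp3, a secreted phosphatase, Akap6, an anchor for protein kinase A, and the zinc finger gene Zfp354a, at -0.96 ± 0.23, -0.61 ± 0.14 and -0.58 ± 0.13. Each of these 3 lost its call without 5 or more of the 9 libraries of control, 6 h and 12 h taken 1 at a time, at ratios of -0.86 to -0.98, -0.54 to -0.68 and -0.54 to -0.64. None of the 4 that fell was called at 12 h against control.

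The other lists gave 0 edgeR calls between the times, or in the p53 list 1, the shared member Sesn2. With 0 calls were the hypoxia response (12 tested), proteasome (34), endoplasmic reticulum chaperones (21), fatty acid synthesis (10), G2/M genes (22), S phase genes (28), respiratory chain (37), autophagy and lysosome (29), apoptosis regulators (22), aryl hydrocarbon receptor genes (7) and extracellular matrix (18). These lists and the ribosomal proteins make 12 in all with 288 memberships. At an unadjusted p under 0.05, 19 were higher at 12 h and 13 lower, against 523 and 648 of all 10575 tested genes. DESeq2 called 5 of them and limma-voom 0, where these tools called 200 and 99 genes in all. By the unadjusted measure 6 of the 22 G2/M genes and 3 of the 28 S phase genes were higher, and 0 lower. Ratios above 0 were found in 21 G2/M genes, 24 S phase genes and 5444 of all tested genes. Mki67, the proliferation marker, was at 1159, 1112 and 1034 CPM at 6 h and 1105, 1094 and 1220 CPM at 12 h, overlapping (log2 ratio 0.05 ± 0.09). All 48 tested cytosolic ribosomal protein genes had ratios above 0, from 0.02 to 0.19 with a median of 0.10, but none passed, and the median was 0.03 without 12 h replicate 1.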

How the data were processed

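Total RNA of undifferentiated Odora cells was sequenced in 15 libraries, 3 in each of 5 groups, and the groups were taken from the labels. The deposited file holds raw counts of reads per gene. TopHat, DESeq, CASAVA 1.8, bcl2fastq and the build rn4 are listed, with no roles, per the submitters' processing notes. The counter, annotation and strand setting were not given in the sources used here, nor was the handling of multiply mapping reads, so close copies and overlapping genes may share reads.

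Identifiers were matched to symbols through RefSeq genes of GRCr8, and 16671 of 16832 matched. Of all identifiers 2758 had no count in any library. Totals of the 9 libraries of control, 6 h and 12 h were 10.3 to 35.2 M (mega) counts, at which 3 counts, the detection floor, equal 0.0853 to 0.290 CPM. Floors cover counting error only.

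Each contrast was tested with the quasi-likelihood F test of edgeR (version 4.0.16, R 4.3.3; robust fit, TMM, filterByExpr, group as the only factor), fitted to all 15 libraries, with Benjamini-Hochberg adjustment over 10575 genes and a threshold of 0.05. The fit included the groups labelled 24 h and 200 µM for the shared estimate of spread. A standard error is the log2 ratio divided by the square root of F. DESeq2 1.42.0 and limma 3.58.1 (voom) were alternatives, with other scalings, filters, library subsets, thinning, thresholds and each library left out. The pipeline was tested on simulated data.

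The rule for named genes takes 10 fixed genes, the 10 highest and 10 lowest ratios of 12 h to 6 h among called genes whose counts average 20 or more and whose groups do not overlap, up to 5 genes in each direction of each class, and the 3 smallest p-values of lists with at least 3 calls. Members, rules and the 31 gene lists were chosen with earlier results of these data known. Motifs were searched in 250 bases before each RefSeq start, in the first promoter of a gene. Some results are not reported here.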

Additional observations from a re-analysis of the deposited data

Results flagged for a closer look

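Between 6 h and 12 h at the same dose, 103 genes differed by edgeR's test of the difference itself. Among the 10 genes that the naming rule takes in every case, 3 differed between the times, with log2 ratios of 12 h to 6 h of -2.38 for Hmox1, 0.49 for Mt2A and 0.96 for Asns.

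The libraries labelled 100 µM for 24 h, which enter no ratio here, held Hmox1 at 7944 to 9232 CPM, where the highest control had 48.3 CPM and the 12 h libraries had 150 to 179 CPM. Those labelled 200 µM for 6 h held it at 7989 to 9138 CPM. Each library of 1 of these labels had a close partner under the other. Chi-square divided by its degrees of freedom came to 1.36 between 24 h replicate 2 and 200 µM replicate 2, 1.37 between 24 h replicate 3 and 200 µM replicate 1 and 1.42 between 24 h replicate 1 and 200 µM replicate 3, and 3.26 to 17.1 for the other pairs across the labels. Replicates of 6 h or of 12 h gave 3.45 to 8.51. No course beyond 12 h is therefore read from the 24 h label. Both labels do enter the shared estimate of spread behind every p-value of the main fit, where such close pairs may not count as separate libraries. A fit without them, on the 9 libraries of control, 6 h and 12 h, called 110 genes between the times.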

How the results depend on the processing

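The count of 103 genes changed between 6 h and 12 h was 200 with DESeq2, 223 in a fit of the 6 libraries alone, 56 at an adjusted p under 0.01 and 5 with a log2 size of at least 1. It was 50 to 140 with 1 library left out, and 86 to 113 under the other scalings, filters, voom, thinning and the 9-library fit. The 1819 early genes numbered 917 at 0.01 and 140 at a log2 size of 1, and 1026 to 1776 with 1 library left out. The 97 that faded became 177 with DESeq2, 53 at 0.01, 5 at a size of 1, and 49 to 124 with 1 library left out. The 508 that persisted became 198, 30, and 207 to 504. The 1 that grew became 0 at 0.01 and at a size of 1, and 0 to 2 with 1 library left out. The 5 late genes became 22 with DESeq2, 9 without the filter, 3 with voom, with thinning and at 0.01, 0 at a size of 1, and 0 to 15 with 1 library left out.

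With library totals in place of TMM, 44 of 99 calls were higher at 12 h, against 51 of 103, and the median of all genes was -0.009. Whether replicate numbers pair the samples is not settled, and the main fit holds no term for them. The correlations of same-numbered deviations at 6 h and 12 h were 0.148, 0.376 and -0.136. Replicates 1 and 2 of 6 h correlated best with their own number at 12 h, and replicate 3 did not. Between control and 6 h the same-numbered values were 0.112, 0.467 and 0.0795. With the replicate block 223 genes changed between the times (271 within 9 libraries), 2564 were early (2794), 201 faded (245), 874 persisted (965), 3 grew (3) and 19 were late (23). Zfand2a lost its call within 9 libraries with the block (-0.60).

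Among named genes 843 values kept direction and side of the threshold, 101 lost the call, 28 gained it and 8 changed sign, none of them called. With 1 library left out, the log2 ratio ranged from -0.12 to 0.11 for Mt1, from -0.0641 to 0.0395 for Nqo1, from -0.00413 to 0.0862 for Mki67 and from -0.13 to 0.38 for Cyp2c23. The 3 replicates a group and 10.3 M counts in the shallowest library limit small ratios.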

Other observations

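In the libraries labelled 24 h, Chac1 was at 903 to 996 CPM, Asns at 125 to 132 CPM, Gclm at 61.7 to 63.3 CPM and Mt1 at 512 to 688 CPM. These are values only.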
